A study of Mus musculus with 2 samples.

Results

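The 40 genes described here are immediate-early genes, subunits of the transcription factor AP-1, dual-specificity phosphatases and heat shock genes. They were taken from a fixed list of symbols matched to the Ensembl gene identifiers of the count tables. All 40 were found among 37681 identifiers, and all 40 had at least 10 counts in at least 1 library, the limit used here for a measured gene, as did 16682 genes in all. C57BL/6 mice gave the RNA, which was from corpus epithelium (the corpus is the part of the stomach with acid-making glands). They carried an Hdc-CFP transgene, whose cyan fluorescent protein marks cells with activity of Hdc, the histidine decarboxylase gene that makes histamine. The study asked for the origin of these histamine-making cells. One library was of the Hdc-CFP-positive cells collected by fluorescence-activated sorting (the sorted library), and 1 was of corpus epithelial cells from which they had been removed (the depleted library). Both carried the same transgene and strain. The number, age and pooling of the mice, and the time from dissection to lysis, are not stated in the labels.

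Immediate-early genes are transcribed within minutes of a stimulus, without new protein synthesis, through factors such as SRF and CREB that are already in the cell. Many of them encode transcription factors, among them the FOS and JUN proteins that pair to form AP-1, and others encode the phosphatases and mRNA decay factors that end the response. Heat shock genes are switched on by HSF1 when proteins unfold and encode chaperones. Both programmes are also known to start during enzymatic dissociation and sorting of tissue.

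Gene counts summed to 10736538 for sorted cells and 50928524 for depleted epithelium, 4.74 times as many. Levels are normalised CPM, that is counts per 1e6 after scaling with edgeR trimmed-mean (TMM) factors, and a fold is the CPM of the sorted over that of the depleted library, with an exact 95% interval for counting error in brackets. Each group was a single library, so nothing could be tested or checked against replicates, and each comparison is of these libraries only. Higher or lower as a count below means a measured gene with a fold of 2 or more in that direction and an interval that excludes 1. In RNA of many cells, fewer cells of a type and less RNA per cell cannot be told apart. The libraries differed in markers of cell type. The 6 endocrine markers (among them Hdc, which the labels name, at 8750.2 and 21.2 CPM) summed to 83912 CPM in sorted cells and 243 CPM in depleted epithelium, 7 macrophage markers to 8.95 and 2737 CPM, 6 leukocyte markers to 52.1 and 562 CPM, and 5 surface mucous markers to 3608 and 154418 CPM. All 7 macrophage markers and all 6 leukocyte markers were lower, and Csf1r, which defines macrophages, had 5 counts in sorted cells and 24469 in depleted epithelium. Markers of other corpus epithelial types were also lower: parietal cells (5 of 5) at 1394 and 7894 CPM, chief cells (3 of 4) at 16619.8 and 66374 CPM, and mucous neck cells (3 of 3) at 825 and 6941 CPM. Endothelial markers (3 of 4 lower) summed to 0.903 and 6.17 CPM. Fibroblast markers (5 of 5 lower) summed to 0.739 and 18.6 CPM, and mast cell markers (3 of 5 higher) to 221 and 103 CPM. In the surface mucous list 4 of 5 were lower and Tff1 was listed at 0 in both. The part of these cell types in the differences below was not tested. As each group was a single library, any difference in handling could not be told apart from one of cell type.

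Most of the 40 genes stood lower in the sorted library. Of the 40, 16 were at least 2-fold lower (40%), against 22.3% of all measured genes, and 5 were at least 2-fold higher (12.5%), against 21.9% of all measured genes. Another 17 had a fold under 1 without reaching the 2-fold limit, and Egr2 and Nr4a1 had one above 1. In all, 33 of the 40 genes had a fold under 1, as did 8637 of the 16682 measured genes. The median log2 fold of the 40 genes was -0.68, against -0.05 for all measured genes. Together they took 0.839% of the gene counts of the sorted and 1.14% of those of the depleted library. Using library totals alone raised every log2 fold by 0.36, and the median of all measured genes became 0.31, so that 28.4% of all measured genes were then higher and 17.1% lower. Under each of the 5 other scalings the same 16 members stayed lower and the same 5 higher, while 8 of the 17 changed direction under at least 1 of them.

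**Figure D1:**
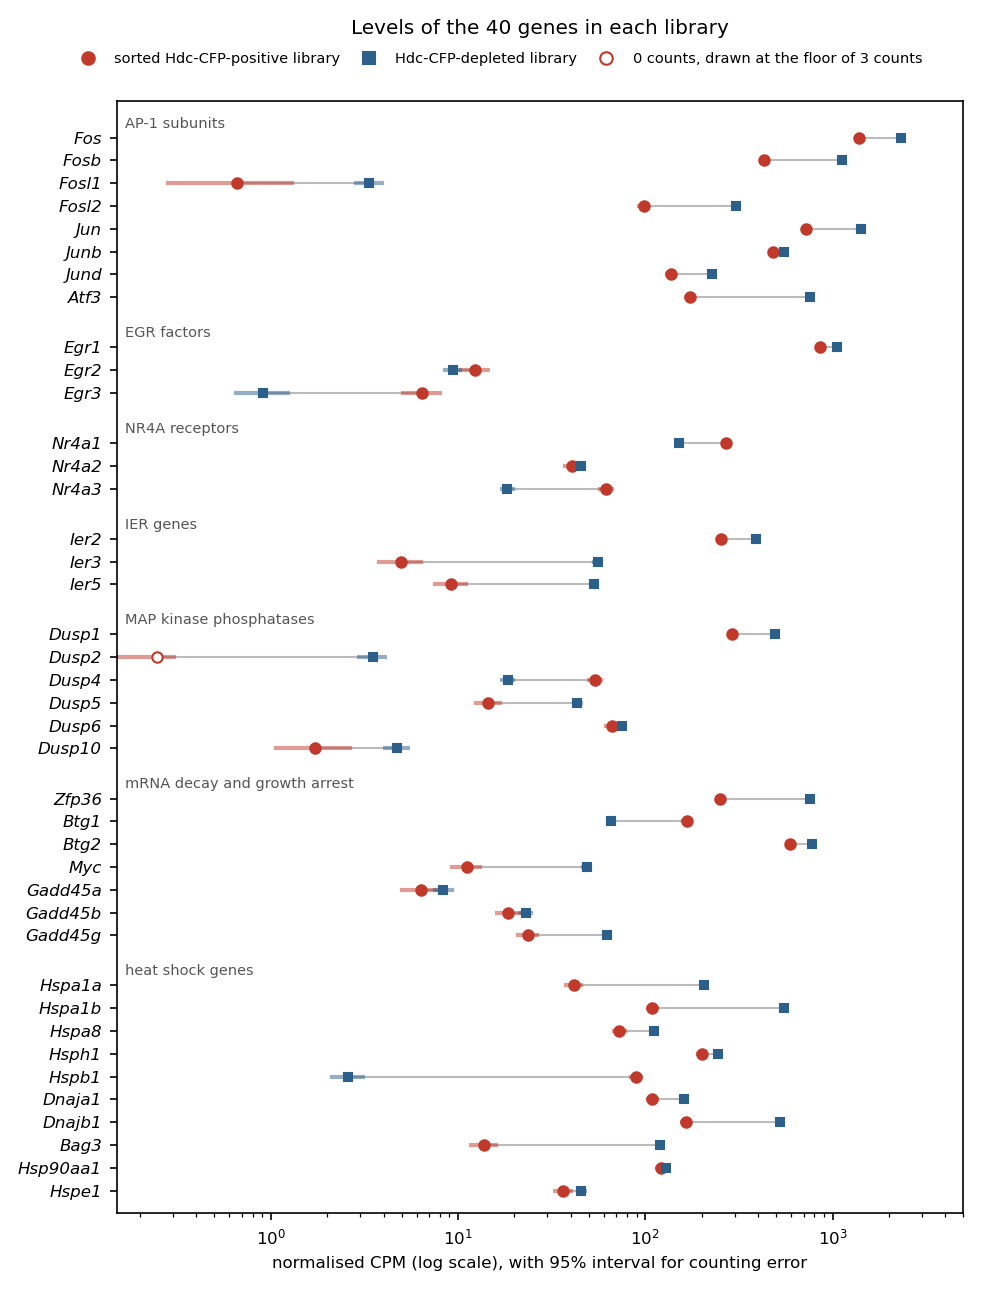
Normalised CPM (horizontal log axis) of each of the 40 genes in the sorted (red circles) and depleted (blue squares) libraries, by role, with 95% intervals for counting error. Fos, at 1386 and 2312 CPM, is at the right in both libraries, and Hspb1 and Egr3 are among the few whose red point lies well to the right of the blue one.

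Most of the 40 genes ranked high in both libraries all the same. When counts per kilobase of exon were ranked within each library, which needs no scaling between them, the median member lay at percentile 87.2 of the measured genes in sorted cells and 90.4 in depleted epithelium. In the sorted library 18 of the 40 genes were at or above percentile 90 and 6 at or above percentile 99, and in depleted epithelium 21 and 8. Fos was at percentile 99.8 in each, Jun at 99.6 in each, and Egr1 at 99.4 in sorted cells and 99.1 in depleted epithelium. By raw counts Fos was the gene of rank 33 in sorted cells and rank 27 in depleted epithelium.

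**Figure D2:**
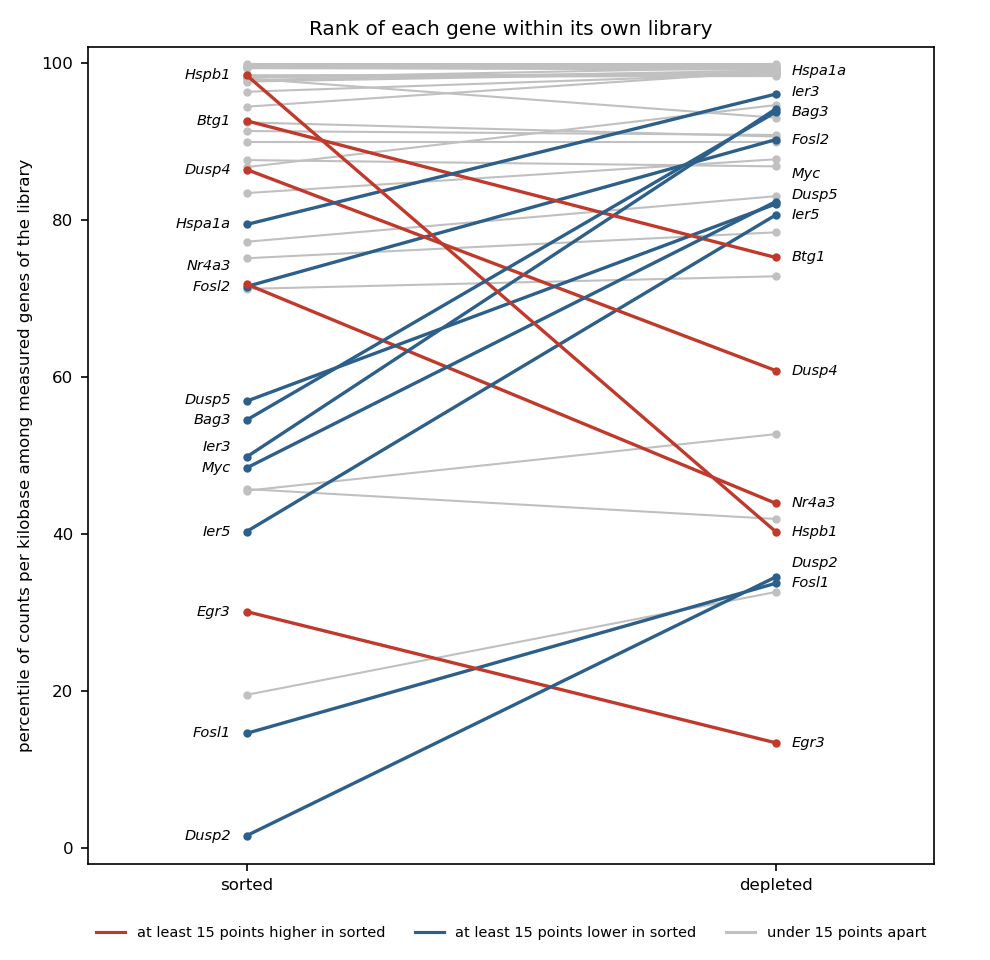
Percentile of each gene's counts per kilobase of exon among the measured genes of the same library (vertical axis), sorted at left and depleted at right. Lines mark the 5 genes that ranked at least 15 points higher in the sorted library (red), the 9 that ranked at least 15 points lower (blue) and the 26 in between (grey).

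The FOS proteins form AP-1 only as partners of JUN proteins. Each of the 4 FOS genes had a fold under 1 with every scaling, and Fosb, Fosl1 and Fosl2 reached the 2-fold limit. With TMM factors, 8637 of the 16682 measured genes had a fold under 1. Fos itself (ENSMUSG00000021250) stood at 1386 CPM in sorted cells and 2312 CPM in depleted epithelium, 1.67-fold lower [1.64 to 1.70], which is short of the 2-fold limit. Fosb, whose product is close to that of Fos, stood at 429 against 1120.3 CPM and was 2.61-fold lower [2.54 to 2.68]. Fosl2, which encodes FRA-2, a later and more lasting subunit, stood at 98.1 against 306 CPM and was 3.11-fold lower [2.93 to 3.31]. All 4 intervals lay wholly on the lower side. Fosl1, which encodes FRA-1, was scarce in both, with 8 counts in sorted cells and 151 in depleted epithelium (5.12-fold lower [2.53 to 12.1]). In the reference annotation 52.6% of its 50-base words also lie in Ccdc85b, a gene on the opposite strand, so its counts are uncertain.

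None of the 3 JUN genes reached the 2-fold limit. Jun stood at 723 CPM in sorted cells and 1423 CPM in depleted epithelium, 1.97-fold lower [1.92 to 2.01], just short of the limit. Junb, which often damps the activity of JUN, stood at 479 against 552 CPM, 1.15-fold lower [1.12 to 1.19], a direction that turned under 3 of the 5 other scalings. Genes on the opposite strand share 5.83% of the 50-base words of Jun and 5.76% of those of Junb. Jund, the subunit that is active also in resting cells, stood at 138 against 228 CPM (1.65-fold lower [1.57 to 1.74]). Of its 50-base words, 48.3% are shared with a gene on the opposite strand, so its counts are uncertain. That gene had 0 counts in both libraries, which cannot settle the matter because the strand setting is not known. Atf3, a stress-induced member of the same leucine zipper class and mostly a repressor, had the widest gap of the AP-1 genes other than Fosl1. It stood at 173 CPM in sorted cells and 755 CPM in depleted epithelium, 4.37-fold lower [4.18 to 4.57].

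The make-up of these families within a library does not depend on scaling. Fos made up 72.4% [71.8 to 73.0] of all FOS family counts in sorted cells and 61.8% [61.6 to 62.0] in depleted epithelium, and Fosb 22.4% [21.9 to 23.0] and 29.9% [29.7 to 30.2]. The ratio of Fosb to Fos counts was 0.310 [0.300 to 0.320] in sorted cells and 0.485 [0.479 to 0.490] in depleted epithelium. Of JUN family counts, Junb took 35.7% [35.0 to 36.5] in sorted cells and 25.1% [24.8 to 25.3] in depleted epithelium, and Jun 54.0% [53.2 to 54.8] and 64.6% [64.3 to 64.9]. Jund took 10.3% in each. The sorted library thus held relatively more Fos among FOS genes and more Junb among JUN genes, by more than counting error. Counting error does not cover the shared words given above.

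**Figure D3:**
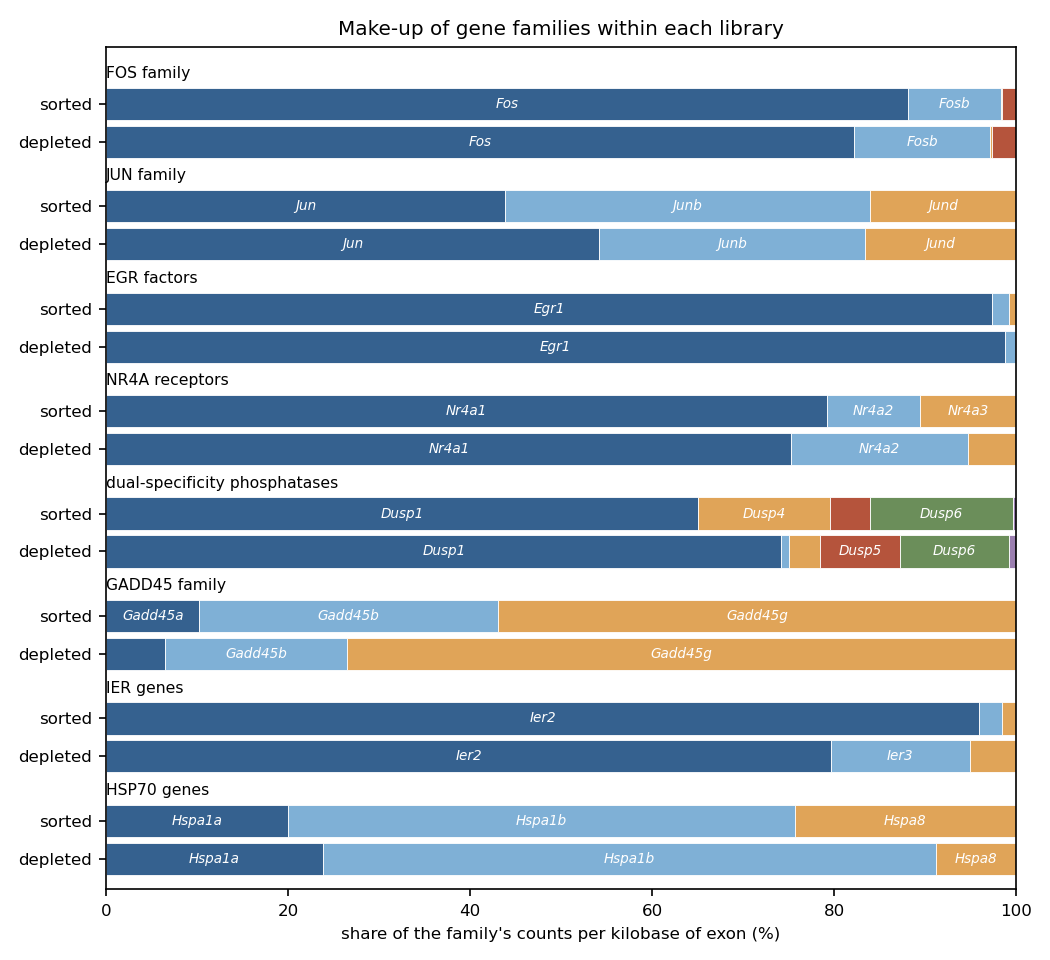
Share of each family's counts per kilobase of exon (horizontal axis, %) taken by each member, with the sorted library above the depleted one. The JUN bars differ in Junb (40.2% in sorted, 29.2% in depleted), the IER bars in Ier3 (2.51% and 15.2%) and the HSP70 bars in Hspa8 (24.3% and 8.86%).

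The EGR zinc finger factors differed among themselves. Egr1, the most abundant of them also per kilobase, stood at 857 CPM in sorted cells and 1059 CPM in depleted epithelium, 1.24-fold lower [1.21 to 1.26], and this direction turned under 2 of the 5 other scalings. Egr2 stood at 12.3 against 9.38 CPM, 1.31-fold higher [1.08 to 1.59]. Egr3 was one of the 5 genes counted as higher, at 6.41 CPM in sorted cells and 0.913 CPM in depleted epithelium, which is 7.02-fold [4.75 to 10.5] on 78 and 41 counts. It stayed a minor member, at 0.732% [0.579 to 0.912] of EGR counts in sorted cells and 0.0854% [0.0613 to 0.116] in depleted epithelium.

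The NR4A genes encode orphan nuclear receptors that respond to cyclic AMP and calcium signals, in neurons and endocrine cells among others. Of the 3, 1 was higher (21.9% of all measured genes were), 0 were lower and 2 were neither. Nr4a3 stood at 61.5 CPM in sorted cells and 18.3 CPM in depleted epithelium and was 3.36-fold higher [3.04 to 3.71]. Nr4a1 stood at 271 against 152 CPM, 1.78-fold higher [1.71 to 1.86], which is under the limit with TMM factors and 2.29-fold with library totals. Nr4a2 stood at 40.7 against 45.3 CPM (1.11-fold lower [1.01 to 1.23]), a direction that turned under 3 of the 5 other scalings. Within the family the share of Nr4a3 was 16.5% [15.4 to 17.6] in sorted cells and 8.50% [7.96 to 9.08] in depleted epithelium.

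The IER genes, named only for their immediate-early response, split strongly. Ier2 stood at 253 CPM in sorted cells and 391 CPM in depleted epithelium, 1.55-fold lower [1.49 to 1.61]. Ier3, which also responds to NF-kB and bears on cell survival, stood at 4.93 against 55.6 CPM and was 11.3-fold lower [8.73 to 14.8], and Ier5 stood at 9.12 against 53.4 CPM and was 5.85-fold lower [4.84 to 7.15]. Ier3 lay at percentile 49.8 of the sorted and 94.1 of the depleted library by counts per kilobase, while Ier2 was above percentile 99 in each. Ier2 therefore made up 94.7% [93.9 to 95.5] of IER counts in sorted cells and 78.2% [77.7 to 78.8] in depleted epithelium.

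**Figure D4:**
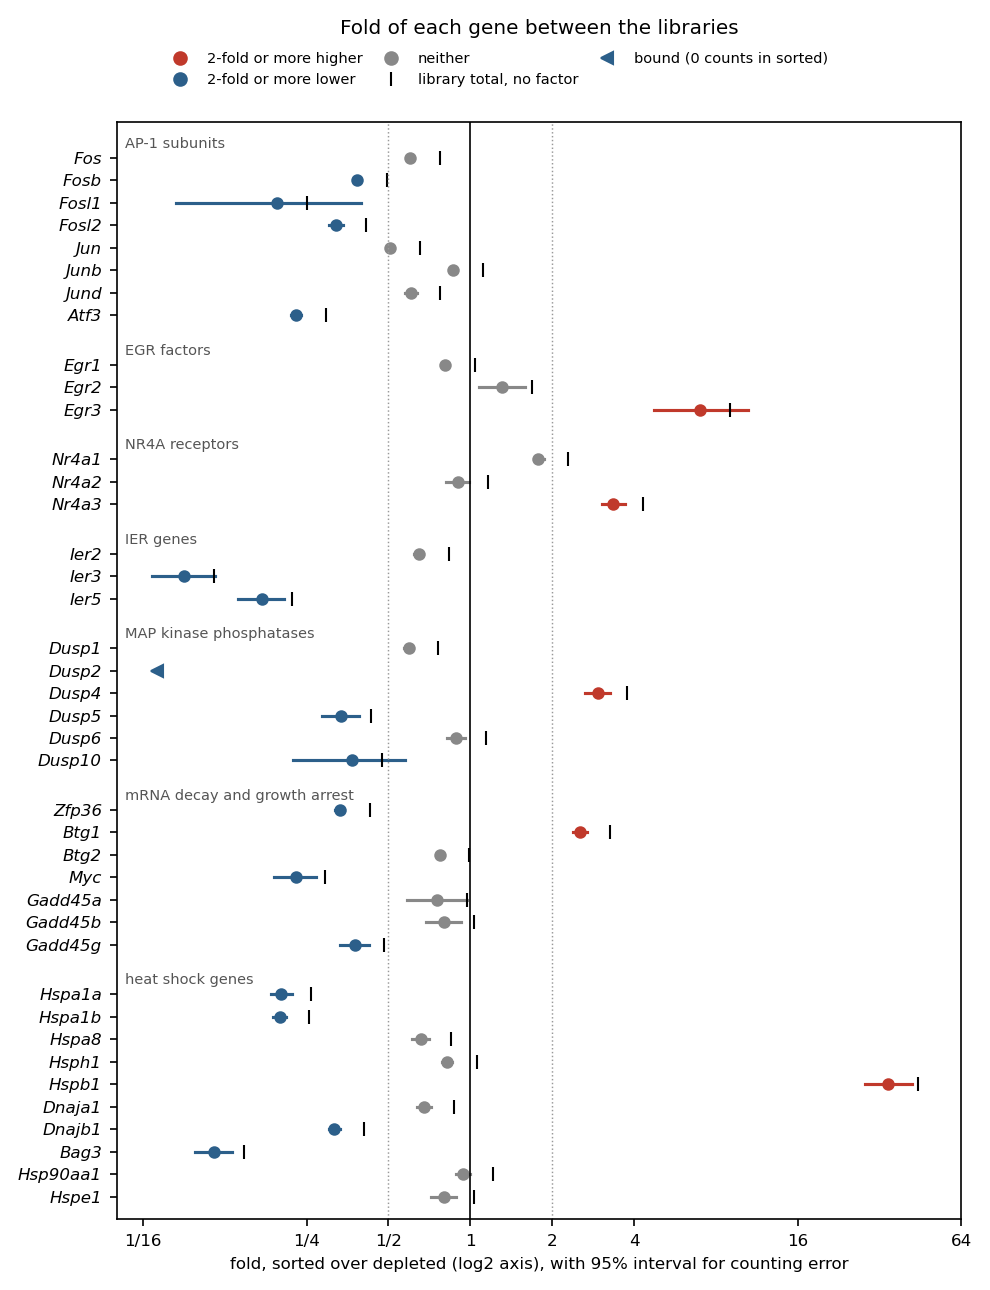
Fold of each gene, sorted over depleted library (horizontal log2 axis), with 95% intervals for counting error. Black ticks give the fold with library totals and no factor, and dotted lines mark 2-fold. The 5 red points (Egr3, Nr4a3, Dusp4, Btg1 and Hspb1) and the 15 blue points keep their side of 1 at the black ticks. The arrow is Dusp2, with 0 counts in the sorted library, drawn at the floor of 3 counts.

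Dual-specificity phosphatases remove phosphate from MAP kinases and so close the loop that induces them. Dusp1, a nuclear phosphatase acting mainly on p38 and JNK, was the most abundant of the 6 also per kilobase, at 291 CPM in sorted cells and 490 CPM in depleted epithelium (1.69-fold lower [1.63 to 1.75]). Dusp6, the cytoplasmic phosphatase of ERK, stood at 66.4 against 75.1 CPM, 1.13-fold lower [1.05 to 1.22], which turned under 3 of the 5 other scalings. Dusp4, a nuclear phosphatase, went the other way, at 54.0 CPM in sorted cells and 18.4 CPM in depleted epithelium (2.94-fold higher [2.65 to 3.26]). Dusp5, a nuclear phosphatase of ERK, stood at 14.5 against 43.4 CPM and was 2.98-fold lower [2.56 to 3.50]. Here 20.5% of its 50-base words lie in a gene on the opposite strand. Dusp10 was scarce, with 21 and 211 counts (2.72-fold lower [1.74 to 4.49]). Dusp2, known mainly from white blood cells, whose markers were lower as given above, had 0 counts in sorted cells and 157 in depleted epithelium. Set at a floor of 3 counts (0.246 CPM) in sorted cells, Dusp2 was at least 14.2-fold lower than its level of 3.50 CPM in depleted epithelium. The exact interval of the fold, which also holds the counting error of the depleted library, reaches down to 11.4-fold lower. The balance between the nuclear phosphatases differed accordingly. Dusp4 took 12.6% [11.8 to 13.6] of the counts of the 6 genes in sorted cells and 2.90% [2.71 to 3.10] in depleted epithelium, and Dusp5 3.40% [2.93 to 3.93] and 6.83% [6.54 to 7.13].

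Genes of mRNA decay and growth arrest, with Myc grouped beside them, included both directions. Zfp36, which encodes tristetraprolin, a protein that binds AU-rich elements and speeds the decay of immediate-early mRNAs, stood at 251 CPM in sorted cells and 759 CPM in depleted epithelium (3.02-fold lower [2.91 to 3.14]). Btg1 and Btg2 encode related antiproliferative proteins that recruit a deadenylase. Btg1 stood at 167 CPM in sorted cells and 65.7 CPM in depleted epithelium, 2.54-fold higher [2.39 to 2.68], while Btg2 stood at 596 against 773 CPM, 1.30-fold lower [1.26 to 1.33]. The paralogues thus lay on opposite sides. Per kilobase Btg2 was still the more abundant in both, at 217 and 282 CPM per kilobase against 31.6 and 12.5 for Btg1 (sorted and depleted in each pair). Myc, the growth factor-induced driver of cell growth, stood at 11.1 CPM in sorted cells and 48.6 CPM in depleted epithelium and was 4.39-fold lower [3.69 to 5.26]. Markers of proliferation moved with it: Mki67, Top2a and Plk1 were all lower and summed to 45.5 CPM in sorted cells and 521 CPM in depleted epithelium, and their part was not tested. Among the GADD45 genes, sensors of stress and DNA damage, Gadd45g stood at 23.6 against 62.7 CPM (2.66-fold lower [2.36 to 3.01]). Gadd45a, at 6.32 against 8.35 CPM (1.32-fold lower [1.03 to 1.71]), was under the limit, as was Gadd45b, at 18.5 against 23.1 CPM (1.25-fold lower [1.08 to 1.45]), whose direction turned under 2 of the 5 other scalings. A gene on the opposite strand shares 15.6% of the 50-base words of Gadd45a.

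The promoters of these genes are shown where a binding motif of the classical inducers was found, since SRF and CREB are the factors through which they respond. RefSeq promoter windows matched 32 of the 40 genes, and the 250 bases before each transcript start were searched on both strands (GRCm38.p6). Egr1, Egr3, Fosl1, Dusp4, Ier2, Myc, Hspa8 and Hsp90aa1 had no window and were not searched. Sites further from the start were not looked for in any gene, so a gene not named below may still hold one. The CArG box bound by SRF was found in 3 of the 32 genes (Dusp5, Egr2 and Zfp36), or 9.38%, against 1.62% of all 27025 genes with a window. The full cyclic AMP element TGACGTCA was found in 2 (Btg2 and Dusp1), or 6.25%, against 1.77% of all genes. The AP-1 site in either form, TGACTCA or TGAGTCA, was in 1 (Bag3), or 3.12%, against 5.16%. The EGR sites GCGGGGGCG and GCGTGGGCG were in 6 (Dnaja1, Dusp2, Fosb, Fosl2, Nr4a1 and Zfp36, 18.8%, against 2.93%) and in 1 (Dnaja1, 3.12%, against 0.622%). Genes with several listed starts count once if any of their windows holds the motif. A match is a description of letters and not a shown binding site. Zfp36 at chr7:28379229-28379478 (minus strand), Dusp1 at chr17:26508473-26508722 (minus strand) and Btg2 at chr1:134079156-134079405 (minus strand) are printed 5′ to 3′ on the gene's strand, with the CArG box of Zfp36 and the TGACGTCA of the others in capitals.
Zfp36: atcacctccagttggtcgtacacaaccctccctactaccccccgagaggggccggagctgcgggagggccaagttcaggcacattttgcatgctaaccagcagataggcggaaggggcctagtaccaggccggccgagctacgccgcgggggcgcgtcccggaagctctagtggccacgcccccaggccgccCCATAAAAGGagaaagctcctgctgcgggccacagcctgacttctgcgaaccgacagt
Dusp1: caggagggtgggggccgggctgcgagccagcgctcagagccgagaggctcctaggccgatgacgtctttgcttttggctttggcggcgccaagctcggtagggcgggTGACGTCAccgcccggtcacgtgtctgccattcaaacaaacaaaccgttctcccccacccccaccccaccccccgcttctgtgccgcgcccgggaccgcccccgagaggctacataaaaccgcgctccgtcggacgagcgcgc
Btg2: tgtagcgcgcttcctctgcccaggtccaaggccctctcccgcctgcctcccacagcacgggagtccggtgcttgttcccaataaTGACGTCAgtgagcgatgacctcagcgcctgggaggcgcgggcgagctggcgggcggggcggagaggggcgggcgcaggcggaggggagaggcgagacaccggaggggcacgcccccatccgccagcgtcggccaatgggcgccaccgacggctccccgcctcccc

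The genes with a CArG box did not share a direction of difference. Zfp36 and Dusp5, with a CArG box, were 3.02-fold and 2.98-fold lower, while Egr2, also with one, was 1.31-fold higher. Dusp1 and Btg2, with TGACGTCA, were 1.69-fold and 1.30-fold lower. Of the 6 genes with GCGGGGGCG, Dusp2, Fosb, Fosl2 and Zfp36 were at least 2-fold lower. So were 40% of the 40 genes and 22.3% of all measured genes. Dnaja1 was 1.48-fold lower and Nr4a1 1.78-fold higher. Bag3, with the AP-1 site, was 8.77-fold lower. The part of the motifs in these folds was not tested.

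Of the 10 heat shock genes, 4 were at least 2-fold lower (22.3% of all measured genes were), 1 was higher (21.9% of all measured genes were) and 5 were neither. The 4 lower ones were Hspa1b, Hspa1a, Dnajb1 and Bag3. Hspa1b and Hspa1a encode nearly identical forms of the inducible chaperone HSP70. Hspa1b stood at 109 CPM in sorted cells and 548 CPM in depleted epithelium (5.03-fold lower [4.76 to 5.32]), and Hspa1a at 41.4 against 205 CPM (4.94-fold lower [4.52 to 5.42]). They share 62.3% and 66.3% of their 50-base words with other genes, mostly each other, so the division of reads between them is uncertain. Their sum was 150.4 CPM in sorted cells and 753 CPM in depleted epithelium, 5.01-fold lower [4.78 to 5.25]. Dnajb1, the inducible HSP40 partner of HSP70, stood at 165 against 523 CPM (3.16-fold lower [3.02 to 3.31]). Bag3, a co-chaperone that links HSP70 to autophagy, stood at 13.7 against 120.3 CPM and was 8.77-fold lower [7.52 to 10.3].

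The 5 genes that were neither included chaperones made in unstressed cells. Hspa8, the constitutive HSP70, stood at 72.8 CPM in sorted cells and 111 CPM in depleted epithelium (1.52-fold lower [1.41 to 1.63]), and Dnaja1, an HSP40, at 109 against 161 CPM (1.48-fold lower [1.39 to 1.57]). Hsph1, a nucleotide exchange factor of HSP70, had 2436 against 10938 counts, 1.22-fold lower [1.17 to 1.27], which turned under 2 of the 5 other scalings. Hspe1, the mitochondrial HSP10, stood at 36.4 against 45.6 CPM, 1.25-fold lower [1.13 to 1.39], which also turned under 2 of them. Hsp90aa1, the stress-responsive HSP90 gene, stood at 121 against 129 CPM, 1.07-fold lower [1.01 to 1.13], which turned under 3. Pseudogenes and related genes share 39.4% of the 50-base words of Hspa8, 20.6% of Dnaja1, 22.8% of Hspe1 and 47.5% of Hsp90aa1, and none of Hsph1. The ratio of inducible to constitutive HSP70 counts (Hspa1a plus Hspa1b over Hspa8), which no scaling can alter, was 2.07 [1.91 to 2.24] in sorted cells and 6.81 [6.61 to 7.02] in depleted epithelium. These counts are not per kilobase, and reads shared with other genes are missing on both sides. The ratio therefore compares the libraries and does not give the relative level of the genes within one.

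Hspb1 (ENSMUSG00000004951) was the exception and had the highest fold of the 40 genes. It encodes a small heat shock protein that holds unfolded proteins and binds the actin skeleton. It stood at 89.0 CPM [83.8 to 94.5] in sorted cells and 2.58 CPM [2.13 to 3.10] in depleted epithelium, on 1084 and 116 counts, a 34.5-fold difference [28.4 to 42.1]. By counts per kilobase it lay at percentile 98.4 of the sorted and 40.3 of the depleted library, the widest shift of rank towards the sorted library among the 40. A processed pseudogene, Hsp25-ps1, and 1 more gene share 50.1% of its 50-base words. That pseudogene had 36 counts in sorted cells and 3 in depleted epithelium, and the fold of both together was 34.7 [28.7 to 42.3]. Hspb1 and Hspa1b therefore differed between the libraries in opposite directions within 1 gene class.

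The promoters of Hspb1, Hspa1b and Hspa1a are printed as examples that were chosen with their folds known. HSF1 binds inverted repeats of GAA, and GAANNTTC was found before 5 of 8 matched heat shock genes (Dnaja1, Hspa1a, Hspa1b, Hspb1 and Hspe1) and before 2 of 24 other matched members (Fosl2 and Jun), against 7.73% of all genes with a window. The reverse arrangement TTCNNGAA was before 2 of the 8 (Hspe1 and Hsph1) and 1 of the 24 (Egr2), against 8.11% of all genes, and in Hspe1 both forms overlap. Hspb1 at chr5:135887669-135887918 (plus strand) held GAANNTTC at positions -117 to -110 and -97 to -90 from the transcript start. Hspa1b at chr17:34959239-34959488 and Hspa1a at chr17:34972157-34972406 (both minus strand) held it once, at -104 to -97. The windows of Hspa1a and Hspa1b were identical at 247 of 250 positions. Of the other members with GAANNTTC, Dnaja1 was 1.48-fold, Hspe1 1.25-fold, Jun 1.97-fold and Fosl2 3.11-fold lower. Only Fosl2 among them reached the 2-fold limit. The part of the motif in these folds was not tested. Capitals mark GAANNTTC.
Hspb1: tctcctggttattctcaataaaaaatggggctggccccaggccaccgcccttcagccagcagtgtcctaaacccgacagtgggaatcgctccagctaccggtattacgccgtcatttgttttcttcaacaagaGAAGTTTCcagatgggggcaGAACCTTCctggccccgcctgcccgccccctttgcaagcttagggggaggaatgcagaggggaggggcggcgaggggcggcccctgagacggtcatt
Hspa1b: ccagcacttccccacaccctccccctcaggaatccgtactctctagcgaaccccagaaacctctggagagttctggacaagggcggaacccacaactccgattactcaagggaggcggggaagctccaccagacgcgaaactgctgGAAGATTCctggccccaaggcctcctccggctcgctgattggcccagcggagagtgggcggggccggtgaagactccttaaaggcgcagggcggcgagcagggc
Hspa1a: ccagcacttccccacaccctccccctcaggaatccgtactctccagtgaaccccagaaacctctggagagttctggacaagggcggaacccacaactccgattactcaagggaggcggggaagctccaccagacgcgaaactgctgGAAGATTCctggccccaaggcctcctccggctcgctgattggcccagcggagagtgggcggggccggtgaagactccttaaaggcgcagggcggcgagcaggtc

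No GAANNTTC or TTCNNGAA lay in the windows of Bag3 and Dnajb1, which says only that these letters are not in those 250 bases.

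Other genes of the same pathways were taken as whole lists, and their shares are to be read against the 21.9% of all measured genes that were higher and the 22.3% that were lower. Of 43 measured other immediate-early genes, 22 were at least 2-fold lower (51.2%) and 3 higher (6.98%), and the median log2 fold was -1.07. The 4 with the most CPM were Klf6, a Krüppel-like factor, at 72.3 CPM in sorted cells and 892 CPM in depleted epithelium (12.3-fold lower [11.5 to 13.2]), Sgk1, a serum-induced kinase, at 22.3 against 533 CPM (23.9-fold lower [21.2 to 27.0]), Rhob, a small GTPase, at 284 against 457 CPM (1.61-fold lower [1.55 to 1.67]), and Tob1, an antiproliferative relative of the BTG proteins, at 334 against 282 CPM (1.19-fold higher [1.14 to 1.23]). With library totals 17 of this list were lower and 5 higher. Of 22 measured genes for AP-1 partners and other leucine zipper factors, 9 were lower (40.9%) and 3 higher (13.6%), with a median of -0.62. Atf4 stood at 277 against 250.3 CPM (1.11-fold higher [1.07 to 1.15]) and Creb3l2, a factor of the secretory pathway, at 197 against 43.7 CPM (4.50-fold higher [4.24 to 4.78]). Atf6 was 1.74-fold higher [1.65 to 1.84] and Creb3l1 1.68-fold lower [1.57 to 1.80].

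Upstream regulators had a median above that of all genes but a share of higher genes below that of all genes. Of 25 measured genes for SRF, ELK, CREB and HSF factors and their kinases, 4 were higher (16%, against 21.9% of all genes) and 2 lower (8%, against 22.3%), and the median log2 fold was 0.26. Among the most abundant, Ep300, Hsbp1 and Mapk3 had folds of 0.986 [0.934 to 1.04], 1.16 (on 1710 and 5416 counts) and 0.616 [0.590 to 0.644]. Of 23 other phosphatases and MAP kinase feedback genes, 8 were higher (34.8%, against 21.9% of all genes) and 4 lower (17.4%, against 22.3%), with a median of 0.53. Dusp11, Dusp16, Spred1 and Rasa1, the most abundant, had folds of 0.996 [0.945 to 1.05], 1.44 [1.33 to 1.56], 0.609 [0.548 to 0.676] and 1.13 [1.05 to 1.22].

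Chaperones of the cytosol and the endoplasmic reticulum had medians near that of all genes, and mitochondrial ones a lower median. Of 46 measured chaperones and co-chaperones outside the list, mostly cytosolic, 9 were higher (19.6%, against 21.9% of all genes) and 2 lower (4.35%, against 22.3%). Their median log2 fold was -0.06 (0.30 with library totals). The 2 lower ones were Bag1 and Serpinh1, and Serpinh1 encodes a collagen chaperone of the endoplasmic reticulum. Hsp90ab1, the constitutive HSP90 gene, stood at 1315 CPM in sorted cells and 1841 CPM in depleted epithelium (1.40-fold lower [1.38 to 1.42]). Hspa4, Fkbp4 and Sqstm1 had folds of 0.758 [0.728 to 0.788], 1.09 [1.06 to 1.13] and 0.690 [0.666 to 0.716]. Among 15 other chaperones of the endoplasmic reticulum 2 were higher (13.3%) and 0 lower (median -0.02, or 0.34 with library totals). Hspa5, the HSP70 of that compartment, stood at 1528 against 1674 CPM, Hsp90b1 at 704 against 702 CPM, and the folds of Hspa5, Calr and Pdia3 were 0.913 [0.898 to 0.928], 0.802 [0.784 to 0.821] and 0.937 [0.918 to 0.957]. Of 9 mitochondrial chaperones 1 was lower (11.1%) and 0 higher (median -0.75). Hspd1, the HSP60 whose gene adjoins Hspe1 head to head, was 1.82-fold lower [1.70 to 1.95], Hspa9 1.69-fold [1.62 to 1.75], and Trap1 1.84-fold [1.71 to 1.98], while Lonp1 stood at 104 against 119.8 CPM.

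**Figure D5:**
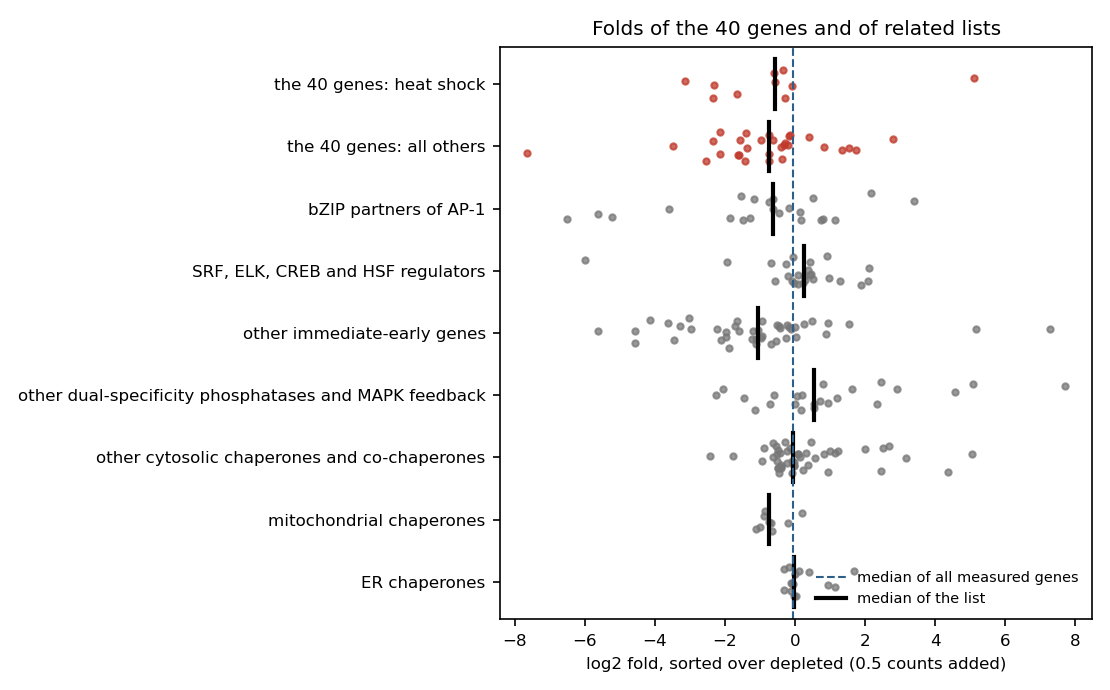
Log2 fold, sorted over depleted library (horizontal axis, 0.5 counts added), of each measured gene of the 40 (red) and of 7 related lists (grey). Black bars are list medians and the dashed line is the median of all measured genes, -0.05. The bars of the other immediate-early genes (-1.07) and of the list labelled as AP-1 partners (-0.62) lie left of it. That list also holds other leucine zipper factors. The bars of the cytosolic (-0.06) and endoplasmic reticulum (-0.02) chaperones lie on the dashed line.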

How the data were processed

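TopHat2 2.0.07, HTSeq and the mouse build mm9 are named in the submitters' processing notes, and the sources used here do not give HTSeq's version, strand setting or annotation. The authors deposited raw read counts per Ensembl gene, 1 file per library, with 5 summary rows that name no gene and stayed out of library sizes. These held alignments that were not unique (24.2% of the sorted and 34.3% of the depleted file), outside genes (9.20% and 4.91%) or in several genes (1.45% and 1.11%), so reads shared between near-identical genes are missing. Without a known strand setting, antisense partners cannot be told apart.

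GENCODE M21 named 32642 of 37681 identifiers and gave exon lengths, overlaps and shared 50-base words. It is on GRCm38, so none of its coordinates are used with the counts. TMM factors (edgeR 4.0.16, R 4.3.3) over measured genes came to 1.13 (sorted) and 0.882 (depleted). Intervals are exact Clopper-Pearson 95% intervals and cover counting error only. Medians use 0.5 counts added in proportion to library size. Folds and calls were checked on simulated counts with Poisson error only.

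The members and lists were chosen with earlier results of these data known. All 40 members are accounted for, and of each related list the 4 genes with the most CPM are named, except 1 that is not reported here. Alternatives were 5 scalings (library total, DESeq2 1.42.0 size factors, upper quartile, totals without the 20 most abundant or without mitochondrial genes), other count limits and folds, 5 counts added, and leaving out members that share over 5% of their words.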

Additional observations from a re-analysis of the deposited data

How the results depend on the processing

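The counts of 16 lower and 5 higher members stayed within 1.5 times under all 5 scalings, the other count limits, the 1.5-fold limit and without the 13 members that share over 5% of their 50-base words. At 4-fold with the interval clear of 2-fold they were 9 lower and 2 higher, as a stricter limit must give fewer. The median log2 fold of -0.68 was -0.31 with library totals, -0.34 without mitochondrial genes and -0.47 without the 20 most abundant genes, since these scalings shift every fold by 0.36, 0.34 and 0.21. It was -0.66, -0.64, -0.68 and -0.74 with DESeq2 factors, upper-quartile factors, 5 counts added and without sharing members. The fold of no member counted as higher or lower changed direction. No paired analysis was possible because each group held 1 library. Depth limits Dusp2, Fosl1, Dusp10, Ier3, Gadd45a and Egr3, which rest on under 100 counts in the sorted library.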

Other observations

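The following genes of the related lists are outside the naming rule and were chosen after their values were seen, so they stand for no group. Npas4, a factor induced by calcium entry in neurons, stood at 27.1 CPM in sorted cells and 0.735 CPM in depleted epithelium, on 330 and 33 counts, which is 36.9-fold higher [25.7 to 54.5]. Egr4 had 33 counts in sorted cells and 0 in depleted epithelium, where 0 allows up to 3 counts. Other immediate-early genes known from neurons were under the limit: Arc at 1.90-fold [1.74 to 2.08], Homer1 at 1.01-fold [0.858 to 1.18] and Plk2 at 19.7 against 19.4 CPM. In their list 3 of 43 genes were higher (6.98%, against 21.9% of all measured genes) and 22 lower (51.2%, against 22.3%). Crem, a cyclic AMP-responsive factor gene, was 3.69-fold higher [3.19 to 4.26] and Crtc1, a CREB coactivator gene, 4.32-fold higher [3.91 to 4.78]. Among the 25 upstream regulators, which hold both, 4 were higher (16%, against 21.9% of all measured genes) and 2 lower (8%, against 22.3%). The Sprouty and Spred genes, which encode feedback inhibitors of MAP kinase signalling, differed among themselves. Spry4 was 7.59-fold higher [5.64 to 10.3] and Spred3 34.0-fold higher [25.8 to 45.7], Spry1 was 4.83-fold lower [3.30 to 7.35], and Spry2 (fold 1.45 [1.27 to 1.65]), Spred2 (1.04 [0.926 to 1.16]) and Spred1 (0.609 [0.548 to 0.676]) were neither. Dusp26, from the list of other phosphatases and MAP kinase feedback genes, had 272 counts in sorted cells and 4 in depleted epithelium. It was 251-fold higher [96.8 to 927]. In that list 8 of 23 genes were higher (34.8%, against 21.9% of all measured genes).

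Chaperone genes outside the list, named after their values were seen, included some that shared the direction of Hspb1, in a list whose share of higher genes (19.6%) was near that of all measured genes (21.9%). Hspb8, another small heat shock protein gene, stood at 16.8 CPM in sorted cells and 0.802 CPM in depleted epithelium (20.9-fold higher [14.6 to 30.7]). Dnaja4 stood at 106 against 11.8 CPM (9.03-fold higher, on 1293 and 528 counts), and Hspa4l was 5.71-fold higher [5.27 to 6.18]. Hspa2 was 6.42-fold higher [5.11 to 8.11] and Hspa12a 34.3-fold higher [20.7 to 60.3]. Bag1 was 3.43-fold lower [3.20 to 3.69] and Serpinh1, a collagen chaperone gene, 5.34-fold lower [4.86 to 5.89]. Maf, a leucine zipper gene also known from macrophages, had 8 counts in the sorted library against 2783 in the depleted one, beside the 7 macrophage markers at 8.95 and 2737 CPM.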
